A study of Mus musculus with 96 samples.

Results

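Aminoacyl-tRNA synthetases were followed across single mouse embryonic stem (ES) cells. The genes were taken by symbol: 1 letter for the amino acid followed by "ars", with or without a final 2, plus Farsa, Farsb and Eprs. This gave 37 of the 23284 gene rows, namely 20 genes of cytosolic enzymes and 17 genes of mitochondrial enzymes, whose symbols end in 2. The cells are J1 ES cells, which come from a male 129 embryo, grown free of feeders with serum and LIF. All 48 form 1 group with no treatment or mutation. Each cell was captured on a microfluidic chip, and its library was read on 2 lanes, which were summed here. Values are CPM, the counts of a gene scaled to a common library total.

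An aminoacyl-tRNA synthetase joins an amino acid to its tRNA, and its product is what the ribosome consumes. Animal cells run the reaction in the cytosol and again inside mitochondria, mostly with separate nuclear genes for each place. Kars and Gars are exceptions that supply both places from 1 gene and are counted with the cytosolic genes here. In the cytosol, several synthetases sit in a multi-synthetase complex held by the scaffold proteins Aimp1, Aimp2 and Eef1e1. Transcription of many cytosolic synthetase genes is known to be raised by ATF4, the transcription factor of the amino acid response.

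A cell held 4408953 to 9767245 reads in genes, with reads on 8039 to 10291 genes, and the members took 0.658% of all reads. On 500 variable genes, from which the members were kept out, the cells fell into a cluster of 13 and a cluster of 35. The primitive endoderm markers (10 genes such as Gata6 and Dab2) summed to 3120 to 19421 CPM in the 13 cells and to 3.65 to 166 CPM in the 35 cells. The naive pluripotency markers (9 genes such as Esrrb) had a median sum of 851 CPM in the 13 cells and 3032 CPM in the 35 cells, with overlapping ranges. The clusters are called primitive endoderm-like and naive-like. Nothing in the labels ties a cell to a culture of its own. The p-values below therefore set a gene's variance against other genes and do not extend to other cells.

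The start regions of 27 member genes were found in RefSeq (GRCm38.p6), from 250 bases before the annotated start to 50 bases after it. They were searched on both strands for TGATGNAAN, the form of the composite element that ATF4 is known to bind with a C/EBP partner. Of all 27025 mouse genes with such a region, 4.5% held the motif. It was present in 5 of 13 cytosolic and in 0 of 14 mitochondrial genes, and in 7 of 23 genes of a list of ATF4 response genes. The windows of 60 bases that hold each match are shown because these 5 genes return below beside the ATF4 list. They are printed on the strand of the gene with the match in capitals. Aars holds 2 matches, which begin 113 bases before the start and 8 bases after it.
Aars, chr8:111033703-111033762, plus strand: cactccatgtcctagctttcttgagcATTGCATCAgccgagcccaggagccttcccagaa
Aars, chr8:111033824-111033883, plus strand: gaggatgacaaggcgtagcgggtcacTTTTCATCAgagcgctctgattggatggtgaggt
Gars, chr6:55037944-55038003, plus strand: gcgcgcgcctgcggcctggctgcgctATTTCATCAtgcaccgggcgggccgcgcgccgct
Iars, chr13:49682110-49682169, plus strand: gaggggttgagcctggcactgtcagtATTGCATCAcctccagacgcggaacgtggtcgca
Tars, chr15:11399641-11399700, minus strand: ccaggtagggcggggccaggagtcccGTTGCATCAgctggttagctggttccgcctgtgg
Yars, chr4:129189880-129189939, plus strand: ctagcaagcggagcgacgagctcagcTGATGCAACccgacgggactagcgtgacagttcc
In Gars and Tars the match begins 31 and 16 bases before the start, and in Iars and Yars it begins 6 and 3 bases after it. Members without an entry in the RefSeq table include Cars, Hars, Hars2, Lars, Nars, Pars2, Rars, Vars and Wars. A match describes letters and was not tested as a binding site.

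How much of each enzyme's transcript a cell holds was asked first. Levels of different genes were compared per kilobase of coding length, with lengths from the GRCm38 annotation. The median over cells was 7.40 to 665 CPM per kb for cytosolic members and 0 to 67.3 for mitochondrial members. The middle cytosolic gene stood at 75.0 CPM per kb and the middle mitochondrial gene at 3.32, against 3.54 over all 10297 tested genes with a length. All 20 cytosolic members lay above that value, as did 8 of the 17 mitochondrial members.

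Kars, which charges tRNA with lysine in both compartments, had the highest level of all members. Its lowest, median and highest values over the 48 cells were 61.4, 1186 and 2682 CPM, and the median per kb was 665. Nars, the asparagine enzyme, spanned 61.0 to 1669 CPM with a median of 395, or 236 per kb. Its coding sequence is 1.677 kb and its transcript 2.745 kb, so its place among the members depends on the length used. Rars, the arginine enzyme of the complex, spanned 15.3 to 1320 CPM with a median of 353, or 178 per kb. The ranges of these 3 genes over cells overlap widely. Eprs, a fused enzyme that charges glutamate and proline, was second by CPM (294, 795 and 2839) but stood at 175 per kb because its coding sequence is long, at 4.54 kb.

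At the low end of the cytosolic class, Vars, the valine enzyme, had 0.729 CPM in its lowest cell, 28.1 at the median and 229.7 in its highest, or 7.40 per kb at the median. Mars, which charges methionine, spanned 0.203 to 396 CPM with a median of 71.4, or 26.4 per kb. Cars, which charges cysteine, spanned 1.20 to 317 CPM with a median of 81.2, or 32.6 per kb. The Vars median per kb lay below that of several mitochondrial genes, among them Rars2, Lars2, Tars2, Fars2 and Yars2.

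Among mitochondrial members, Rars2 (arginine) led with 0.309, 117 and 570 CPM in its lowest, median and highest cell, or 67.3 per kb at the median. Lars2 (leucine) followed with 67.3, 110 and 278 CPM, or 40.6 per kb. Tars2 (threonine) had 0.272, 59.0 and 472 CPM, or 27.2 per kb. At the low end, Pars2 (proline) had 0 reads in 34 of the 48 cells and 82.5 CPM in its highest cell. Vars2 (valine) and Wars2 (tryptophan) each had 0 reads in 24 cells and reached 63.0 and 107 CPM. In all, 7 mitochondrial members had a median under 1 CPM, yet each of the 7 reached at least 57.6 CPM in some cell, so low medians stood beside single cells with clear signal.

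**Figure D1:**
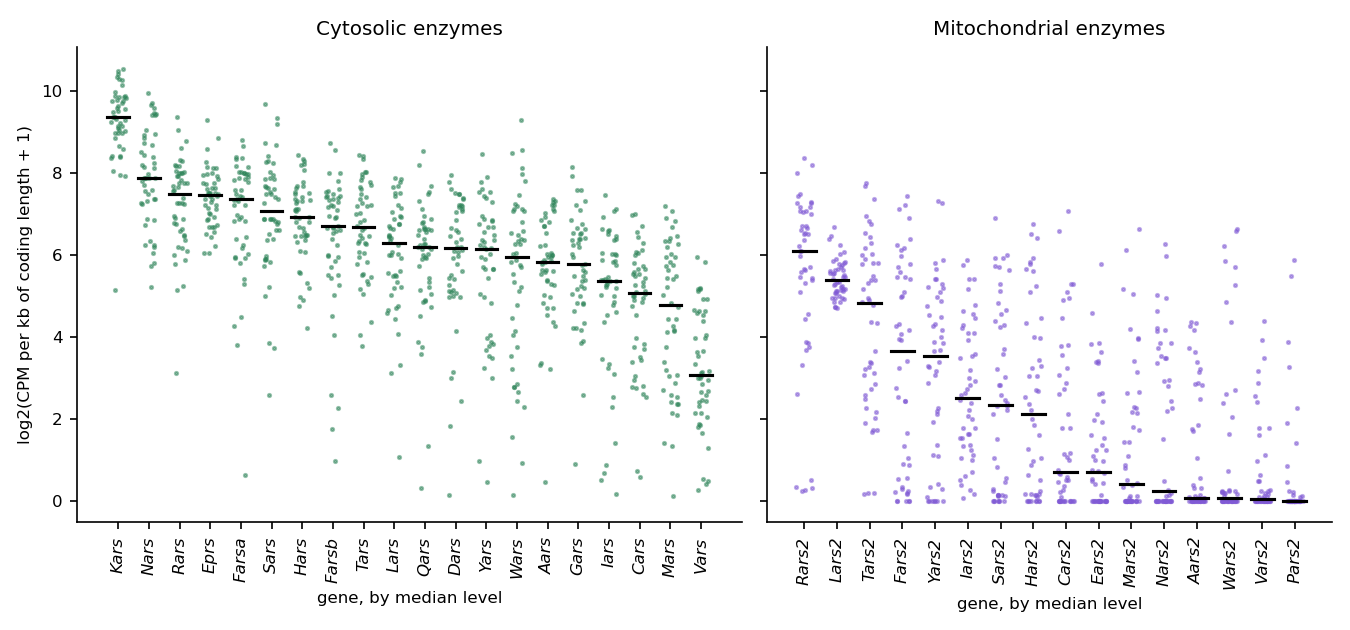
Level of the members in each of the 48 cells, as log2(CPM per kb of coding length + 1), with cytosolic genes on the left and mitochondrial genes on the right. Each point is a cell and each bar the median of the cells; Kars lies highest, Lars2 is the mitochondrial gene with the narrowest spread, and the genes at the far right have most cells at or near 0.

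Detection showed the same order between classes. Each cell was thinned to 4408953 reads, and a gene counted as detected with at least 5 reads. Of the cytosolic members, 11 were detected in all 48 cells and the other 9 in 46 or 47. Of the mitochondrial members, Lars2 alone was detected in all 48 cells, and the middle gene was detected in 31. Over all 11746 tested genes, 15.2% were detected in every cell. Pars2 was detected in the fewest cells, 8 of 48 (16.7%, exact Clopper-Pearson 95% interval 7.48% to 30.2%). Wars2 was detected in 14 cells and Vars2 in 15. Pars2 averaged 34.7 reads per cell, whereas Rars2 averaged 1003, more than the 369 of the cytosolic gene Vars. The interval covers the counting of cells only.

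For each amino acid with a gene in both places, the mean level per kb of the cytosolic enzyme was divided by that of the mitochondrial enzyme. The cytosolic enzyme had the higher mean for all 17 amino acids. Among the small ratios were 1.99 for leucine (Lars 88.9 and Lars2 44.7 CPM per kb, Lars higher in 35 of 48 cells) and 2.29 for arginine (Rars 192 and Rars2 84.2 CPM per kb, Rars higher in 40 cells). The ratio was largest for proline, where the fused enzyme Eprs averaged 189 CPM per kb and Pars2 2.79 (ratio 67.7). It was 49.8 for glutamate (Eprs against Ears2 at 3.79 CPM per kb) and 39.3 for asparagine (Nars 318 and Nars2 8.08 CPM per kb). In these last 3 pairs the cytosolic gene was higher in each of the 48 cells. Ratios between these ends included 2.99 for threonine (Tars 128 and Tars2 42.9 CPM per kb), 3.65 for cysteine and 20.8 for alanine. The order of the ratios depends on the length used. Tars and Tars2 both have 2.17 kb of coding sequence, but their transcripts are 4.005 and 2.40 kb long. Ratios by amino acid per kb of transcript are not given here.

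Summed per kb within a cell, the cytosolic members stood at 1115, 2858 and 5529 CPM per kb in the lowest, median and highest cell, and the mitochondrial members at 93.8, 350 and 870. The ratio of the sums was 3.80 in the lowest cell, 7.66 at the median and 32.5 in the highest (mean 8.98 ± 4.95, SD over 48 cells). Every cell therefore held more cytosolic than mitochondrial synthetase transcript per kb. With amino acids that have 1 gene in each place, the median ratio was 4.36, and without Gars and Kars it was 5.41. Kars alone made up a median of 25.9% of the cytosolic sum.

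Members differed between the clusters in both classes, described here without a test because the clusters were made from the same cells. The median of a member was lower in primitive endoderm-like than in naive-like cells for 28 of 37 members, higher for 8 and equal for 1. Over all 11746 tested genes, 5069 (43.2%) were lower, 4370 were higher and the rest were equal. The median difference over these genes was 0 on the log2(CPM + 1) scale. It was -0.28 for cytosolic and -0.65 for mitochondrial members. A median lower by at least 1 log2 unit was found for 5 cytosolic and 6 mitochondrial members, 11 of 37, against 16.1% of all tested genes. A median higher by at least 1 unit was found for Wars and Yars2, 2 of 37, against 16.7%. Primitive endoderm-like cells had a median of 8076614 reads and naive-like cells 6419369, and the part of depth in these differences was not tested.

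The following members were chosen after their cluster values were seen. Rars2 had 0.309, 35.7 and 180 CPM in the lowest, median and highest primitive endoderm-like cell, against 0.355, 158 and 570 CPM in naive-like cells. Tars2 had 0.272, 19.9 and 119 CPM in primitive endoderm-like cells, against 4.75, 84.9 and 472 CPM in naive-like cells. Sars2, the mitochondrial serine enzyme, had a median of 0.285 CPM in primitive endoderm-like and 9.46 CPM in naive-like cells, the widest difference on the log2 scale, at -3.03. The ranges of the clusters overlap for each of these genes. Fars2 and Ears2 also had medians lower by at least 1 unit, and so did the cytosolic genes Lars, Dars, Farsa (a subunit of the phenylalanine enzyme), Gars and Tars. Lars had a median of 111 CPM in primitive endoderm-like and 316 CPM in naive-like cells. Wars, which charges tryptophan, went the other way, with 2.76, 201 and 914 CPM in primitive endoderm-like cells and 0.152, 73.9 and 324 CPM in naive-like cells. Yars2 had medians of 26.6 CPM in primitive endoderm-like and 12.3 CPM in naive-like cells.

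**Figure D2:**
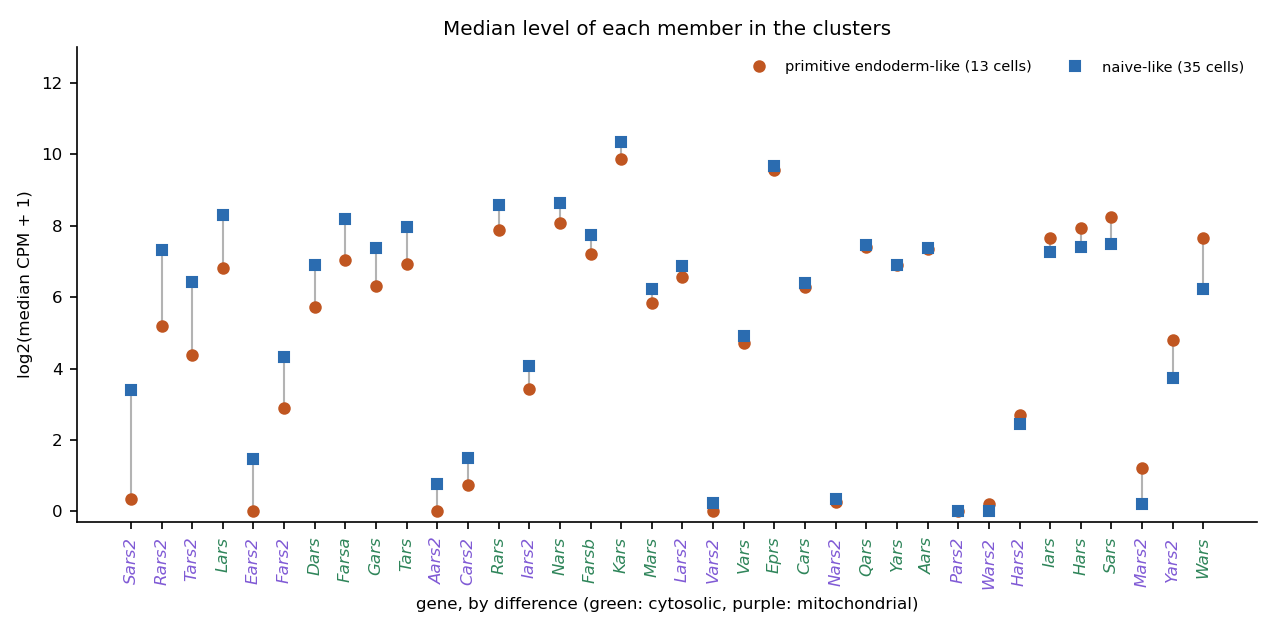
Median level of members, as log2(median CPM + 1), in the 13 primitive endoderm-like cells (circles) and the 35 naive-like cells (squares), ordered by the difference between them. Gene names are green for cytosolic and purple for mitochondrial enzymes; circles lie below squares for most members, and Wars shows the widest gap the other way.

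The ratio of the class sums moved with the clusters too. It was 5.69, 10.2 and 32.5 in the lowest, median and highest primitive endoderm-like cell, against 3.80, 7.24 and 18.5 in naive-like cells. The mitochondrial sum had a median of 205 CPM per kb in primitive endoderm-like and 414 in naive-like cells, and the cytosolic sum had one of 2051 in primitive endoderm-like and 3052 in naive-like cells. A median of 9 mitochondrial members was detected per primitive endoderm-like cell and of 11 per naive-like cell, in thinned cells. The ranges overlap in each of these measures.

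**Figure D3:**
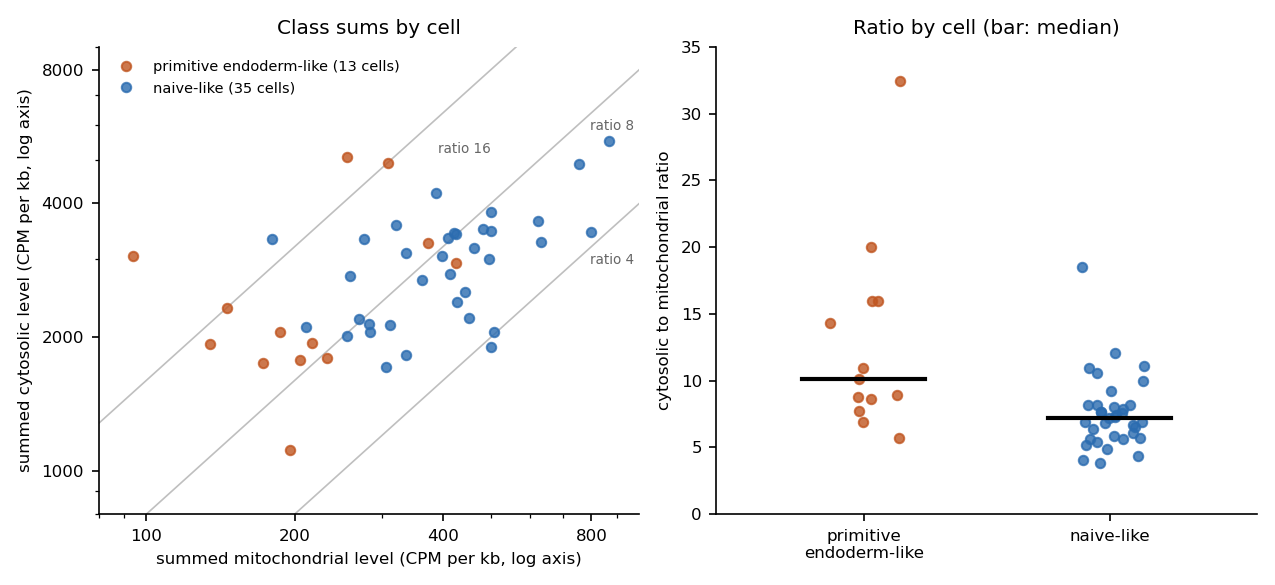
Summed cytosolic against summed mitochondrial level per cell (left, CPM per kb, both axes logarithmic, grey lines at fixed ratios) and the ratio by cell in the clusters (right, bars at the medians of 10.2 in primitive endoderm-like and 7.24 in naive-like cells). Each point is a cell; every cell lies at a ratio of 3.80 or more.

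Which enzymes vary between cells more than genes of like mean was asked with scran's modelGeneVar, which sets the variance of log2(CPM + 1) against a trend over all tested genes. All 37 members had the mean of at least 10 reads per cell needed for the test. Over all 48 cells, Kars and Nars were called, 2 of 37 members, at an adjusted p under 0.05, against 2.03% of all 11746 tested genes. Within the 35 naive-like cells, Kars, Nars, Lars, Iars and Rars2 were called, 5 of 37, against 1.75% of 11454 tested genes. No member was called as less variable than the trend in either set of cells, and neither was any other tested gene. On that side, 283 genes had an unadjusted p under 0.05 over all cells and 399 in naive-like cells. A variance cannot be negative, so the test has little room on that side, and the lack of calls there decides nothing. Variance above the trend was found in 17 of 20 cytosolic members and in 5 of 17 mitochondrial members over all cells, against 50.6% of all tested genes. The median excess over the trend was 0.61 for cytosolic and -0.13 for mitochondrial members, against 0.01 for all tested genes, in log2 units squared. In naive-like cells the classes lay closer together: 17 of 20 cytosolic and 9 of 17 mitochondrial members were above the trend, against 51.2% of all tested genes, and the median excess was 0.29 for cytosolic and 0.19 for mitochondrial members.

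Nars and Iars carried the calls that no single naive-like cell decided. Nars had 61.0, 397 and 1669 CPM in the lowest, median and highest naive-like cell. Its variance was 1.36 where the trend gave 0.48 (modelGeneVar, adjusted p = 8.48e-05 in naive-like cells). The call held with each of the 35 cells left out in turn, with an adjusted p of at most 0.00217. Over all cells its adjusted p was 0.0173, and without cell 15, 26 or 43 it was up to 0.0556. Iars, the isoleucine enzyme of the complex, had 0.432, 153 and 526 CPM in naive-like cells, so its lowest cell held 3 reads. Its variance there was 4.68 where the trend gave 1.82 (modelGeneVar, adjusted p = 0.00169), and the adjusted p was at most 0.0355 with any naive-like cell left out. With a pseudocount of 10 CPM the Iars call in naive-like cells was lost (adjusted p = 0.245). Over all cells Iars just missed the threshold (modelGeneVar, adjusted p = 0.0534). Iars transcripts share 8.61% of their words of 50 bases with the processed pseudogene Gm4849, so its reads can be split between the copies.

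Kars, Lars and Rars2 rested on few cells. Kars was called in naive-like cells with a variance of 0.87 where the trend gave 0.26 (modelGeneVar, adjusted p = 1.33e-07) and over all cells (adjusted p = 0.00135). Cell 44 held 61.4 CPM of Kars (291 reads), and the next lowest of all cells held 431. Without cell 44 the adjusted p of Kars was 0.949 in naive-like cells and 0.898 over all cells. Cell 44 also had the fewest genes detected, 8039. Lars, the leucine enzyme of the complex, had 3.80 CPM in cell 39 and at least 27.3 CPM in every other cell. Its call in naive-like cells (modelGeneVar, adjusted p = 0.000122) had an adjusted p of 0.931 without cell 39. Rars2, the one mitochondrial member called (modelGeneVar, adjusted p = 0.0196), lost its call without cell 8, 11 or 28, with an adjusted p of up to 0.640. It also missed the threshold with library size alone (adjusted p = 0.0967) and with scran's size factors (adjusted p = 0.0931).

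The squared coefficient of variation (modelGeneCV2 of scran) in place of the log2 variance ended 4 of the 5 naive-like calls and kept Nars (adjusted p = 0.0189). It added Sars, the serine enzyme (adjusted p = 0.0209), in naive-like cells and called Wars alone over all cells (adjusted p = 0.0215). Within naive-like cells Sars reached 1262 CPM beside a median of 179. Wars reached 914 CPM over all cells beside a median of 88.1. That highest value lay in a primitive endoderm-like cell, and the highest naive-like value of Wars was 324 CPM. Its median was 201 CPM in primitive endoderm-like and 73.9 CPM in naive-like cells, and the part of the clusters in the Wars call was not tested.

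Of the cytosolic members, those farthest above the trend over all cells were Iars, with a variance of 4.45 where the trend gave 1.99, Wars with 4.79 against 2.99 and Farsb, the other subunit of the phenylalanine enzyme, with 2.98 against 1.51. Far above it among mitochondrial members stood Rars2, with 5.52 against 2.66. Fars2, the mitochondrial phenylalanine enzyme, stood less far above it, with 7.09 against 6.02 (modelGeneVar, unadjusted p = 0.330). None of these 5 passed the adjusted threshold over all cells. Farthest below it among cytosolic members stood Vars (2.94 against 4.54), Cars (2.63 against 2.97) and Hars, the histidine enzyme (1.02 against 1.25). Among mitochondrial members these were Iars2 (3.85 against 5.74), Ears2 (2.95 against 4.58) and Lars2 (0.23 against 1.80). The kit does not keep strand, and 22.9% of the exonic bases of Iars2 overlap Rab3gap2 on the opposite strand, so reads in the overlap cannot be told apart.

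**Figure D4:**
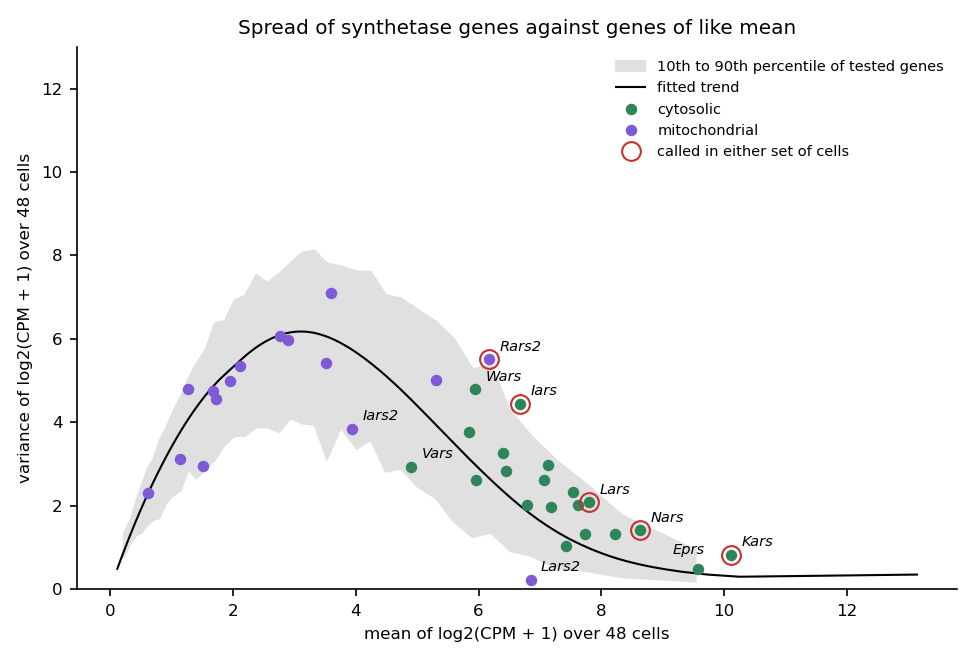
Variance against mean of log2(CPM + 1) over 48 cells for the members, with the trend fitted on all tested genes (line) and the band between the 10th and 90th percentile of those genes in bins of the mean. Red rings mark the 5 members called over all cells or in naive-like cells; Lars2 lies at 0.23 where the trend gives 1.80.

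The enzymes of the multi-synthetase complex are Dars, Eprs, Iars, Kars, Lars, Mars, Qars and Rars. All 8 complex members lay above the trend over all cells, as did 9 of the 12 other cytosolic members, with median excesses of 0.61 and 0.67. The scaffold genes Aimp1, Aimp2 and Eef1e1 were each detected in all 48 cells, and 0 of the 3 lay above the trend or were called. Their medians were 163, 159 and 281 CPM. Of 10 other genes of tRNA charging that the symbols do not cover, such as Sepsecs (selenocysteine) and Qrsl1 (a subunit of the mitochondrial glutamyl-tRNA amidotransferase), 0 were called and 6 lay above the trend over all cells. Of all tested genes, 2.03% were called and 50.6% lay above the trend over all cells. Tarsl2, a further cytosolic threonine enzyme, was detected in 11 cells, against 48 for Tars.

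Whether members rise and fall together was described within the 35 naive-like cells, by Spearman correlation. Every cell's values share a size factor, a depth and a number of genes detected. The median over the 190 cytosolic pairs was 0.10, with 128 pairs above 0. It was 0.02 over the 136 mitochondrial pairs, of which 78 were above 0, and 0.02 over the 340 pairs between classes. Over all pairs of tested genes the median was 0.00. Cytosolic members stand at higher levels than the other sets, and the part of level in these medians was not tested. Among cytosolic pairs, the highest rho was found for Hars and Kars (0.67), Kars and Mars (0.55), Tars and Vars (0.54), Lars and Sars (0.51) and Gars and Lars (0.50). The lowest cytosolic pairs were Rars and Tars (-0.41) and Gars and Qars, the glutamine enzyme (-0.41). Ears2 and Hars2 had the lowest rho of the mitochondrial pairs (-0.43), and Farsb and Hars2 reached 0.52 between classes. Single pairs thus ranged widely around a median near 0, with an SD of 0.20 over the 190 cytosolic pairs. The pairs named were picked by their rho, and no single pair was tested.

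The cytosolic sum went with the ATF4 response list, 22 tested genes of amino acid synthesis, transport and stress. In naive-like cells the cytosolic members summed to 3762, 6066 and 11659 CPM in the lowest, median and highest cell, and the ATF4 list to 1298, 2535 and 7707 CPM. Spearman's rho between the sums was 0.73 over 35 cells, and Pearson's r of their log2 values was 0.75. Without the 2 cells farthest from the median of the list, rho was 0.68 and r was 0.63 over 33 cells. Without Kars and Eprs, which made up 35.6% of the cytosolic sum, rho was 0.67. The mitochondrial sum had a rho of 0.32 with the list and of 0.54 with the cytosolic sum. The cytosolic sum also had a rho of -0.56 with the number of genes detected, and the mitochondrial sum -0.64. With genes detected regressed out, the rho between the cytosolic sum and the list was 0.65.

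By gene, the rho with the summed list had a median of 0.25 over cytosolic and 0.05 over mitochondrial members, against 0.01 over all tested genes. These sets differ in level: the middle gene stood at 75.0, 3.32 and 3.54 CPM per kb over all cells, in that order. The part of level in these medians was not tested. The rho with the list was highest for Iars (0.53), Kars (0.51), Nars (0.50) and Mars (0.46). This order depended on the measure: with mean log2 levels of the list it was 0.48 for Nars, 0.44 for Gars and for Iars, 0.42 for Lars, 0.25 for Mars and 0.17 for Kars. Exons of Mars overlap those of Ddit3, a gene of the list, by 68 bases on the opposite strand. The 5 genes with the motif printed above had rhos of 0.53 for Iars, 0.35 for Yars, 0.30 for Gars, 0.23 for Tars and -0.00448 for Aars. The 8 cytosolic genes whose region lacked it had a median of 0.25 and a highest value of 0.51, so the ranges overlap. Exons of Aars overlap those of Exosc6 by 1326 bases on the same strand, 14.3% of the exonic bases of Aars. Of the list itself, 4 of 22 tested genes were called variable in naive-like cells, against 1.75% of all tested genes. The 4 called were Asns (asparagine synthetase), Psat1 (serine synthesis), Mthfd2 (a mitochondrial folate enzyme) and Slc7a3 (a cationic amino acid transporter). Asns made up 20.2% of the summed list and Eif4ebp1 19.9%.

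Lars2 had the narrowest spread of all members, and its values below were looked up after this was seen. It spanned 67.3 to 278 CPM with no cell at or near 0, whereas Tars2, at a lower median of 59.0 CPM, spanned 0.272 to 472. Its variance of 0.23 lay below the trend of 1.80. The test on that side (modelGeneVar, adjusted p = 0.914) has too little room below the trend to decide whether this spread is unusual. Among all tested genes, the one whose level went most closely with Lars2 over the 35 naive-like cells was Rn45s, the ribosomal RNA precursor, at a rho of 0.85 (Pearson's r 0.84). Without the 2 cells farthest from the Rn45s median, rho was 0.83 over 33 cells. Rps21 (0.84) and Rpl6 (0.82), which encode ribosomal proteins, were also among the closest under this scaling. With library size alone, no ribosomal protein gene was among the 6 closest genes. With library size alone as scaling, the rho of Lars2 with Rn45s was 0.55, and with scran's factors it was 0.60, at rank 3 among tested genes in both cases. The other members had a rho with Rn45s of at most 0.46 (Hars). Of the 3845 words of 50 bases in the Lars2 transcript used, 3 occur in another annotated gene, Gm15564. That gene is of the annotated class antisense, but no other annotated gene overlaps exons of Lars2. The search took exact matches in GENCODE transcripts only, and sequence outside that annotation was not searched. The part of other RNA in the Lars2 count was not tested. Without Lars2, the median ratio of the class sums was 8.75 in place of 7.66.

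**Figure D5:**
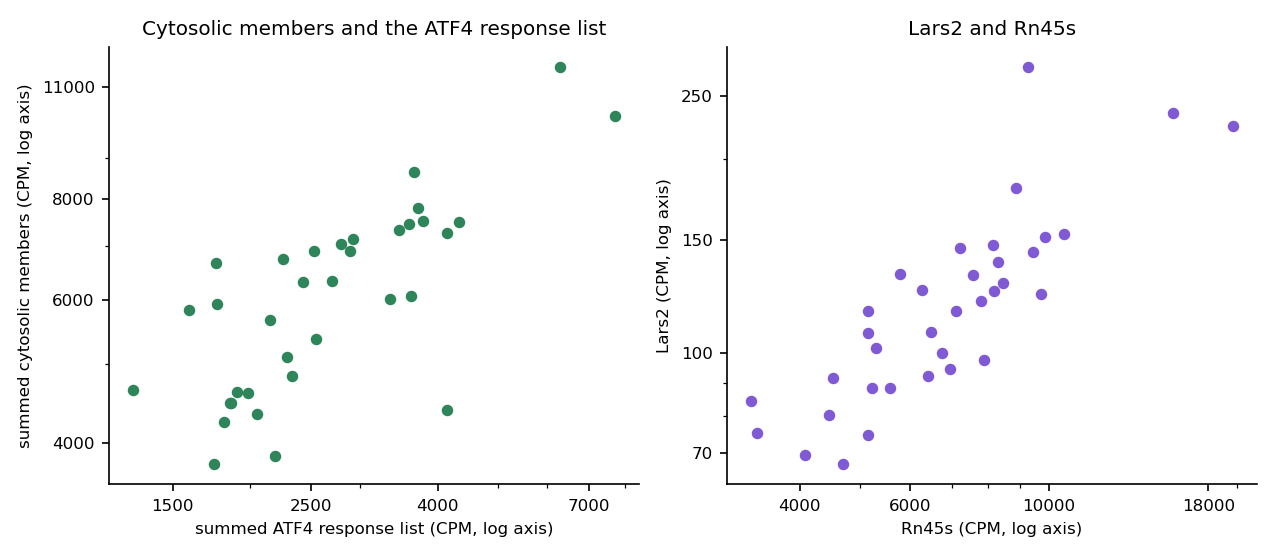
Summed cytosolic members against the summed ATF4 response list (left) and Lars2 against Rn45s (right) in the 35 naive-like cells, in CPM on logarithmic axes. Each point is a cell; Spearman's rho is 0.73 on the left and 0.85 on the right.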

How the data were processed

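The authors deposited raw counts of reads per gene in 1 table. The tools listed in the submitters' processing notes are Subread 1.4.5-p1, featureCounts and STAR 2.3.1z12. The notes give mm9 as genome build and assign no step to a tool. Per the labels' protocols, cDNA was amplified on a Fluidigm C1 chip with the SMARTer kit and sequenced as Nextera XT libraries, a kit without strand. The 96 samples are 48 cells on 2 lanes each, of 2198523 to 4890845 reads per lane, and lanes were summed per cell.

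CPM were computed from the counts with TMMwsp factors of edgeR 4.0.16, and log2(CPM + 1) was used for variance. The variance call used scran 1.30.0 in R 4.3.3, one-sided, with Benjamini-Hochberg adjustment over every gene that averaged 10 or more reads per cell, and was tested on simulated data. Cells were clustered by Ward's method on 5 principal components. Reads carry no molecular identifiers. Of the rows, 25 have date-like names in place of symbols, with 0.660% of reads, and were kept. Coding and exonic lengths, overlaps and shared words came from the GENCODE annotation of GRCm38, which is not the build of the counts. Members and gene lists were chosen with earlier results of these data known. Members were named by a rule: the 3 highest and 3 lowest levels per kb and the 3 farthest from the trend on each side in each class, every called member, the 3 largest and 3 smallest ratios by amino acid, and the 3 detected in the fewest cells. Members named outside the rule were chosen after their values were seen. Alternatives were other size factors, pseudocounts, filters, single lanes, thinned cells and the squared coefficient of variation; leaving out cells, Lars2, exonic lengths and mean log2 levels were added after the data were seen. 1 member is not reported by name or plotted here and is held in the counts over members alone.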

Additional observations from a re-analysis of the deposited data

How the results depend on the processing

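Over all cells, the 2 called members became 4 with library size alone and with lane 2 alone. They became 1 with a pseudocount of 10 CPM, with no filter on low counts and with the squared coefficient of variation. The other 4 alternatives gave 2 or 3. With each cell left out in turn the count was 1 to 5. In naive-like cells, the 5 called members became 2 with a pseudocount of 10 CPM and 2 with the squared coefficient of variation; the other 7 alternatives gave 4 or 5, as did leaving out each cell. The cause of these changes was not tested. Nars kept its naive-like call in 9 of 9 alternatives (highest adjusted p = 0.0189 by scran's fits), Kars in 8, Iars and Lars in 7 and Rars2 in 4. Over all cells Nars kept its call in 6 of 9. The median class ratio stayed between 4.36 and 8.75 in 9 alternatives, within the SD over cells. The number of members with a lower median in primitive endoderm-like cells was 27 or 28 in 3 alternatives. The rho of the cytosolic sum with the ATF4 list was 0.52 with mean log2 levels in place of sums, and 0.63 to 0.65 in the other 3 alternatives. The median rho of cytosolic pairs was 0.06 to 0.09 in 3 alternatives. No paired analysis was possible because all cells form 1 group. Moderate excess spread can be missed with 48 cells, and mitochondrial members with few reads limit what detection can show.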
